A study of Mus musculus with 2 samples.

Results

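The regions described here are the H3K36me2 peaks of mouse colon that lie in the first intron of a gene. They were taken from the peak lists of 1 NSD2fl/fl library and 1 NSD2∆IE library as every peak that the authors' annotation places in intron 1 of a transcript. This gave 1487 of 19976 peaks in NSD2fl/fl and 1881 of 23518 in NSD2∆IE, or 3368 of 43494 in all. NSD2fl/fl mice carry floxed *Nsd2* alleles, and NSD2∆IE mice lose NSD2 in the intestinal epithelium through a Cre driven by the villin promoter. Both were male littermates on a C57BL/6J background that were given HFCD, a diet high in fat and cholesterol, from 7 to 8 weeks of age. The diet lasted 18 weeks by the paper's methods and 16 weeks by the deposited design text. CUT&Tag, in which an antibody on chromatin guides the transposase Tn5 to the DNA around it, was run on colon tissue. The tissue also holds cells in which villin-driven Cre is not active, so a peak cannot be placed in epithelial or other cells, and fewer cells with the mark and less of the mark per cell cannot be told apart. With 1 library per genotype there was no replicate error and no test between the genotypes, and differences between the lists are differences between these libraries.

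NSD2 is a histone methyltransferase that makes the dimethyl mark H3K36me2. The mark lies in broad domains over intergenic DNA and over genes, where it is often rich behind the promoter, while the trimethyl form, which SETD2 makes, follows towards the 3′ end of transcribed genes. First introns are on average the longest introns of a gene and hold many enhancers, and H3K36me2 is read by the PWWP domain of the DNA methyltransferase DNMT3A. The lists name the position of a peak, not the expression of its gene.

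Sequences under the peaks are not printed, since no genome of the lists' build was used. The DNA just before the start of 4 host genes is shown instead, because the lists set a promoter peak beside their first-intron peaks. *Agap1*, encoding an Arf GTPase-activating protein, had 1 promoter peak in each library and 6 and 5 first-intron peaks in NSD2fl/fl and NSD2∆IE. *Ski*, encoding a corepressor of SMAD proteins, had 2 and 1 promoter peaks and 2 and 4 first-intron peaks. *Smad3*, encoding the transcription factor that TGF-β receptors activate, had 2 promoter peaks and 1 first-intron peak in each library. *Gpr39*, encoding a zinc-sensing receptor, had no promoter peak in NSD2fl/fl and 1 in NSD2∆IE, with 5 and 1 first-intron peaks. The 250 bases before each start, from RefSeq's promoters of GRCm38.p6 matched by symbol, are given 5′ to 3′ on the gene's strand, with every CG in capitals.
Agap1, chr1:89454561-89454810, + strand: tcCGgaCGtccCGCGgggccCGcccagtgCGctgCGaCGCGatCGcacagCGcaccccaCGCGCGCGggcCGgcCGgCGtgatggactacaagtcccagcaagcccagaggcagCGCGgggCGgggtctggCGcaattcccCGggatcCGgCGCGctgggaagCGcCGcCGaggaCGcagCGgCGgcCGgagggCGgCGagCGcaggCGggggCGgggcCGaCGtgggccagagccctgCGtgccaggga
Ski, chr4:155222536-155222785, - strand: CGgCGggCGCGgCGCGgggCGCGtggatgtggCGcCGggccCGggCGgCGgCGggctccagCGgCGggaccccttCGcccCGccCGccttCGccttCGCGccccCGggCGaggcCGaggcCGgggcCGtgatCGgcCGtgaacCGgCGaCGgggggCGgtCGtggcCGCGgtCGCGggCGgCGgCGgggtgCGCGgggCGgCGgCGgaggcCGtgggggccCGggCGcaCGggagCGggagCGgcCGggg
Smad3, chr9:63757995-63758244, - strand: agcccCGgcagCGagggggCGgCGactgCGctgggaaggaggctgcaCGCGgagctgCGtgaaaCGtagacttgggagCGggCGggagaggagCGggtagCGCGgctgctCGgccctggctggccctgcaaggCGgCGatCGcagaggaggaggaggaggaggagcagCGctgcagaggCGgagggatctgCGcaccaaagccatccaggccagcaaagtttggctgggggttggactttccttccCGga
Gpr39, chr1:125676746-125676995, + strand: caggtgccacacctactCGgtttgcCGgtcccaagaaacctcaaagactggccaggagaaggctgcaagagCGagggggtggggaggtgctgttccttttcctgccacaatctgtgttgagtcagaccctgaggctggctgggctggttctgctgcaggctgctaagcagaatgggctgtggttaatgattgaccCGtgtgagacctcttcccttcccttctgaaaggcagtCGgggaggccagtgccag

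The *Ski* window held 53 CG and the *Agap1* window 41, counts that 0.0365% and 1.09% of the 32851 promoters in the table reach. *Smad3* had 22 CG, which 14.8% of promoters reach, and *Gpr39* had 5, against a median of 6 over all promoters. The motif is its own reverse complement, so both strands give the same count. A promoter could be matched by symbol for 1312 of the 1725 host genes, or 76.1%, and the host genes were not compared with other genes as a set. The genes printed here were chosen after their values were seen, so their CG counts do not stand for those of the host genes. These windows are in GRCm38.p6 and the peaks are in another build, so positions in the paragraph on sequences cannot be set against those of the peaks.

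First-intron peaks made up 7.44% of the NSD2fl/fl list (95% Wilson interval 7.09% to 7.82%) and 7.998% of the NSD2∆IE list (7.66% to 8.35%). These intervals cover the counting of peaks within a library only. Among peaks in introns, the first intron held the largest group, with 35.4% in NSD2fl/fl and 33.8% in NSD2∆IE, followed by the second intron with 22.1% and 21.6% and the third intron with 12.04% and 12.2%. The NSD2∆IE library thus had more first-intron peaks, but they covered 6809485 bp against 7186460 bp in NSD2fl/fl. The median width was 4509 bp (quartiles 3808 and 5377.5 bp) in NSD2fl/fl and 3352 bp (2835 and 4044 bp) in NSD2∆IE. All peaks showed the same order, with medians of 4643 and 3426 bp, and so did peaks in later introns, with 4494 and 3285 bp. The deposited signal divided by width had medians of 6.10 and 6.24 per bp over first-intron peaks and of 6.14 and 6.32 per bp over all peaks. Since the signal has no stated scaling to depth, the values of the lists are not on a known common scale. The lowest summed signal of any listed peak was 21783 in NSD2fl/fl and 16571 in NSD2∆IE, so the lists start at different values. The median over first-intron peaks was 26140 and 20044. The part of these limits in the numbers and widths of peaks was not tested. Few first-intron peaks were among the strongest of their list, since 18.2% of them in NSD2fl/fl and 20.6% in NSD2∆IE were in the 25% of the list with the highest summed signal. The X chromosome held 0 and 1 first-intron peaks, and 1 and 5 peaks of any kind.

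The annotation counts a peak within 3 kb of any TSS as a promoter peak, so first-intron peaks start beyond that limit. The closest lay 3002 bp from a TSS in NSD2fl/fl and 3005 bp in NSD2∆IE. The median distance to the nearest TSS was 13633 bp (quartiles 7097 and 28027.5 bp) and 12780 bp (6818 and 26395 bp). A share of 37.5% and 39.8% lay within 10 kb of a TSS, and 10.96% and 11.16% lay more than 50 kb away. The longest distance was 258655 bp in NSD2fl/fl and 382800 bp in NSD2∆IE, the latter in *Dcc*, encoding the netrin receptor. The nearest TSS was that of the host gene itself for 1096 peaks (73.7%) in NSD2fl/fl and 1376 (73.2%) in NSD2∆IE. Of these, 19.6% and 18.6% lay upstream of that TSS, which is possible where a longer transcript of the gene begins further out. For the other 391 and 505 peaks another gene's TSS was nearer, in 320 and 413 cases that of a predicted or uncharacterised gene (Gm, LOC or Rik symbols) and in 15 and 24 cases that of a miRNA gene. A nearest-gene table therefore credits 26.3% and 26.8% of first-intron peaks to a gene other than the one they lie in. The first-intron peak of *Bmp7*, a BMP ligand, is listed under Gm40010, and that of *Lgr5*, the receptor that marks intestinal stem cells, under A930009A15Rik.

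**Figure D1:**
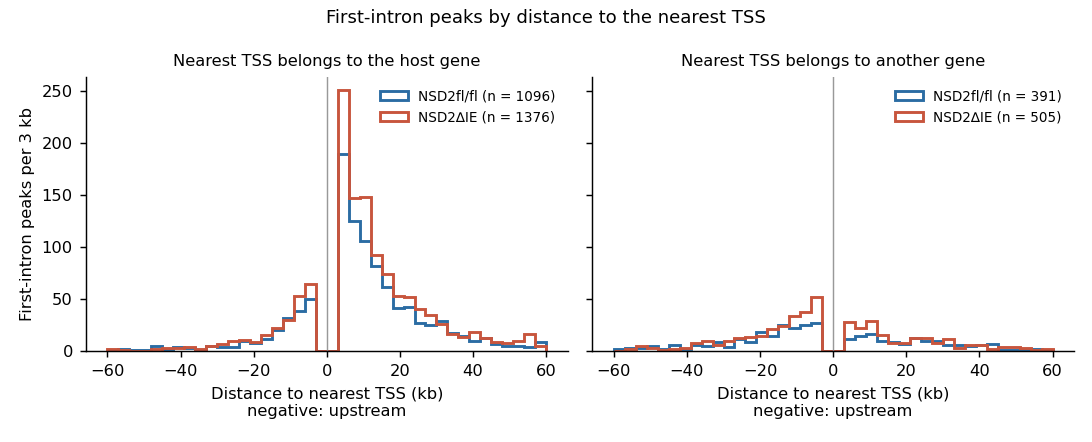
Number of first-intron peaks in 3 kb bins (y axis) by their distance to the nearest TSS in kb (x axis, cut at 60 kb on both sides), for peaks whose nearest TSS is that of the host gene (left) and of another gene (right), with 1 line per library. The empty bins at 0 are the promoter class of the annotation. On the left most peaks lie downstream, with 881 of 1096 in NSD2fl/fl and 1120 of 1376 in NSD2∆IE, and the counts fall with distance in both libraries.

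The hosts were mostly long genes. First-intron peaks lay in 1022 genes in NSD2fl/fl and 1225 in NSD2∆IE, and 83.5% and 82.5% of the peaks were assigned to a protein-coding transcript. Host transcripts had a median of 10 and 9 introns, and 89 and 96 peaks lay in transcripts with a single intron. The median length of the host genes, where the lists give one, was 97061 bp (n = 942) and 88496.5 bp (n = 1116), against 12476.5 and 12113 bp over all listed genes and 116333 and 105323.5 bp for genes with a peak in a later intron. Of listed genes up to 10 kb long, 0.0885% in NSD2fl/fl and 0.160% in NSD2∆IE had a first-intron peak. The share was 3.28% and 4.56% at 10 to 30 kb, 15.0% and 16.9% at 30 to 100 kb, 33.8% and 34.8% at 100 to 300 kb, and 45.6% and 46.9% above 300 kb. A first-intron peak has to lie more than 3 kb from any TSS, so the annotation leaves short genes little room for one. The part of this rule in the rise with length was not tested. Of all genes with a peak of any kind, 7.63% in NSD2fl/fl and 8.33% in NSD2∆IE had one in the first intron. Where the host transcript could be located, for 929 and 1187 peaks, the point of highest signal lay at a median of 22433.5 and 20737.5 bp from its start, or 23.4% and 23.9% of the way along it. A promoter peak was listed for 328 (32.1%) and 375 (30.6%) of the host genes, and for 26.9% and 27.1% of the genes with a later-intron peak. The share over all listed genes was not counted, so these values do not show whether host genes are rich in promoter peaks. A later-intron peak was present in 27.6% and 31.9% of the host genes.

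Most host genes had a single first-intron peak, and 263 (25.7%) in NSD2fl/fl and 338 (27.6%) in NSD2∆IE had more. At least 5 peaks were found in 24 and 37 genes, which held 139 and 253 of the peaks and had median lengths of 293.4 and 401.2 kb. The same 12 genes had 5 or more in both libraries, among them the ion channel genes *Asic2*, *Cacna2d1* and *Kcnma1*, the potassium channel partners *Dpp6* and *Kcnip1*, the sorting receptors *Sorcs2* and *Sorcs3*, and *Agap1*, *Camta1*, *Galnt18*, *Hivep3* and *Iqsec1*. *Asic2*, encoding a subunit of acid-sensing sodium channels, had the most, with 17 in each library. They were spread over its 1088 kb (chromosome 11, 80770991 to 81859222, minus strand), from 29.8 to 935.6 kb from the start in NSD2fl/fl and from 10.7 to 976.6 kb in NSD2∆IE. In each list 5 of the 17 overlapped a peak of the other, and the covered length was 91951 bp in NSD2fl/fl and 58912 bp in NSD2∆IE. *Kcnma1*, encoding the pore of the large-conductance calcium-activated potassium channel, had 8 peaks in each library, 3 of them overlapped in each, with 39286 and 25424 bp.

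The other 3 of the 5 genes with most first-intron peaks had more of them in NSD2∆IE. *Galnt18*, a member of the family of enzymes that start mucin-type O-glycosylation, had 5 peaks in NSD2fl/fl (21694 bp) and 12 in NSD2∆IE (41057 bp), and 3 of each overlapped. *Rbfox3*, encoding the neuronal splicing factor known as NeuN, had 4 peaks (16685 bp) and 12 (45893 bp). *Dpp6*, encoding an auxiliary subunit of A-type potassium channels, had 6 peaks (23419 bp) and 10 (34932 bp), and 1 of each overlapped.

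**Figure D2:**
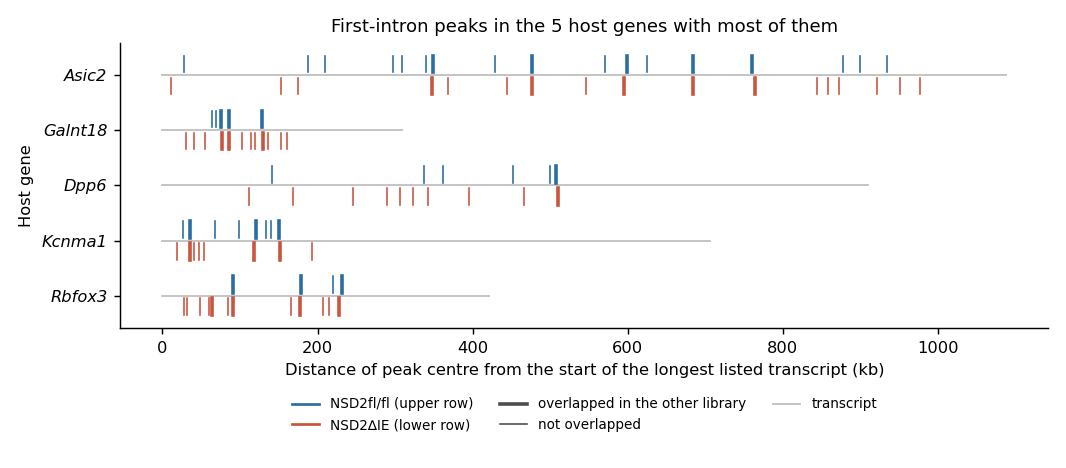
Centres of the first-intron peaks (vertical ticks) in the 5 host genes with most of them, by distance in kb from the start of the longest listed transcript (x axis; grey line, the transcript), with NSD2fl/fl in the upper and NSD2∆IE in the lower row of each gene. Thick ticks are peaks overlapped by a peak of the other library, which are 5 of 17 in each library for *Asic2* and 1 of 6 and 1 of 10 for *Dpp6*.

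To see how far the libraries shared first-intron peaks, an overlap of at least 1 bp with any peak of the other library was counted. It was met by 418 first-intron peaks (28.1%, interval 25.9% to 30.4%) in NSD2fl/fl, against 34.1% of all peaks of that list, and by 497 (26.4%, 24.5% to 28.5%) in NSD2∆IE, against 30.7% of all. Peaks in later introns were overlapped in 25.1% (23.5% to 26.8%) and 23.6% (22.24% to 24.98%), distal intergenic peaks in 21.8% and 18.3%, and promoter peaks within 1 kb of a TSS in 41.9% and 38.8%. The first-intron values thus lay below those of all peaks and of promoters and above those of distal intergenic peaks in both libraries, while their intervals overlapped those of later introns. The overlap moved with strength. When the NSD2fl/fl list was cut into 4 equal parts by summed signal, 19.9% of first-intron peaks were overlapped in the weakest part, followed by 25.1%, 29.3% and 44.1% in the next parts, against 21.7%, 25.6%, 33.4% and 55.6% of all peaks. In NSD2∆IE the values were 19.8%, 19.7%, 27.9% and 42.1%, against 20.5%, 23.5%, 29.7% and 49.1%. First-intron peaks were thus below all peaks in each part, by the widest margin in the strongest. Width moved in the same way at its upper end, with 39.1% and 35.8% overlapped in the widest 25% of each list, against 50.2% and 43.0% of all peaks. The part of strength and width in the overlap was not tested.

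**Figure D3:**
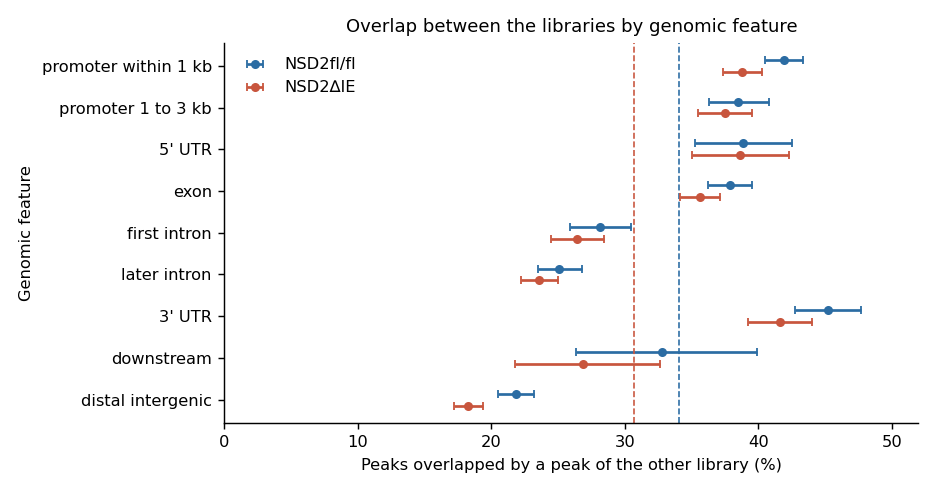
Share of peaks overlapped by at least 1 bp by a peak of the other library (x axis, %) for each genomic feature of the annotation (y axis), with 95% Wilson intervals that cover counting error only. Points are the NSD2fl/fl and NSD2∆IE lists and dashed lines the share over all peaks of each list (34.1% and 30.7%). First-intron peaks, at 28.1% and 26.4%, lie between promoter and distal intergenic peaks.

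The counterpart of an overlapped first-intron peak was usually a first-intron peak of the same gene, in 369 of 418 cases in NSD2fl/fl and 390 of 497 in NSD2∆IE. Promoter peaks were the counterpart of 37 and 82. There were 393 pairs of overlapping first-intron peaks. In these pairs the NSD2fl/fl peak was the wider in 283, with a median of 4854 bp against 3613 bp, and the median overlap was 2746 bp. In 192 pairs the overlap took up at least 50% of both peaks. The points of highest signal of a pair overlapped in 35 and lay within 500 bp of each other in 100, with a median distance of 1637 bp. Over all overlapped first-intron peaks the median was 1544 bp in NSD2fl/fl and 1767 bp in NSD2∆IE, close to the 1508 and 1640 bp of all overlapped peaks of the lists. The longest overlap was in *Prkag2*, encoding a regulatory subunit of AMP-activated protein kinase, where the NSD2fl/fl peak (chromosome 5, 25168999 to 25178125) lay wholly within the NSD2∆IE peak (25166606 to 25178151) over 9127 bp. The summits of this pair overlapped too. D430019H16Rik followed with 9118 bp, and *Brsk2*, encoding a kinase related to AMP-activated protein kinase, with 8968 bp and summits 147 bp apart. Next were *Agap1*, with an overlap of 8490 bp, and *Rxra*, encoding the retinoid X receptor α that pairs with many nuclear receptors, with 8254 bp.

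The widest first-intron peaks reached 17265 bp in *Sorcs2* and 16497 bp in *Agap1*, both in NSD2fl/fl and both overlapped in NSD2∆IE. In NSD2∆IE the widest were in *Celf4*, encoding an RNA-binding protein, with 13980 bp, and in *Cacna2d2*, encoding an auxiliary subunit of calcium channels, with 12489 bp. Some wide and strong peaks had no counterpart at all. The strongest of these in NSD2fl/fl was a peak of 16113 bp in *Epas1*, encoding the hypoxia-inducible factor HIF-2α (chromosome 17, 87068935 to 87085047). It was followed by 11866 bp in *Sorcs2*, 12322 bp in *Hdac4*, a class II histone deacetylase, 8673 bp in Gm2164 and 9085 bp in *Trpv4*, a cation channel. In NSD2∆IE the strongest without a counterpart were 11208 bp in *Zfp469* (chromosome 8, 122799759 to 122810966), 11632 bp in *Csmd2* and 6381 bp in *Cmip*. The highest signal per bp was at the same place in both lists, in the predicted gene Gm36264 on chromosome 13. That peak started at 9061722 in both and ended at 9062204 in NSD2fl/fl and 9063221 in NSD2∆IE, with 54.9 and 19.9 per bp, while no other first-intron peak exceeded 12.5 and 14.0 per bp.

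Summed over the first-intron peaks of each gene, the covered length could be set side by side for 1725 host genes. A log2 ratio of NSD2∆IE to NSD2fl/fl below -0.5, or peaks in NSD2fl/fl only, gave 697 genes (40.4%) with less length in NSD2∆IE, against 43.3% of all genes over all their peaks. A ratio above 0.5, or peaks in NSD2∆IE only, gave 800 (46.4%) with more, against 39.7% of all genes, and 228 (13.2%) were similar. The background assigns peaks to the nearest gene and the first-intron counts to the host gene. This order of less and more turned under other settings. With the lists cut to equal numbers of peaks by signal, 731 genes had less and 657 more, and with all peaks of the host genes 667 had less and 539 more. Most of the calls came from genes with first-intron peaks in 1 library only, which were 500 for NSD2fl/fl and 703 for NSD2∆IE. Of these, 312 and 423 had some other peak listed for the gene in the other library, which could lie at the same place under another annotation. There the call can rest on the annotation of a shared peak, and how many do was not counted. The 522 genes with first-intron peaks in both, 51.1% of the NSD2fl/fl and 42.6% of the NSD2∆IE host genes, had less length in 197 and more in 97, with a median log2 ratio of -0.25. The median width of first-intron peaks differed by a log2 ratio of -0.43. In 233 of the 522 genes no first-intron peak overlapped one of the other library. Over all features, 13168 of 19976 peaks in NSD2fl/fl and 16301 of 23518 in NSD2∆IE had no overlap. The same count per gene was not made for other features, so the 233 cannot be read as a trait of first introns. The peaks of a gene may lie in intron 1 of different transcripts, as those of *Smad3* and *Erg* do, so these are not always the same intron.

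Among the 522 genes, length was lowest in NSD2∆IE relative to NSD2fl/fl in *Syt2*, encoding a calcium sensor of vesicle release, with 23974 bp in 5 peaks against 2135 bp in 1 (log2 ratio -3.49). The kinase gene *Stk32c* had 24058 and 2480 bp, and *Dpf3*, encoding a subunit of BAF chromatin remodelling complexes, had 28170 and 3304 bp. *Ccnd3*, encoding cyclin D3, had 17182 and 2184 bp, and *Gpr39* had 23977 and 3196 bp. None of the first-intron peaks of *Syt2*, *Dpf3* and *Gpr39* overlapped a peak of the other library. In the other direction, *Kcnip4*, encoding a potassium channel interacting protein, had 3946 bp in 1 peak in NSD2fl/fl and 19680 bp in 4 peaks in NSD2∆IE (log2 ratio 2.32). *Arhgap35* had 2304 and 10008 bp, *Gas7* 4074 and 17195 bp, the receptor gene *Igf1r* 2892 and 11323 bp, and *Cacna2d2* 3215 and 12489 bp. For *Cacna2d2* the difference was that of 1 overlapping peak in each library.

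**Figure D4:**
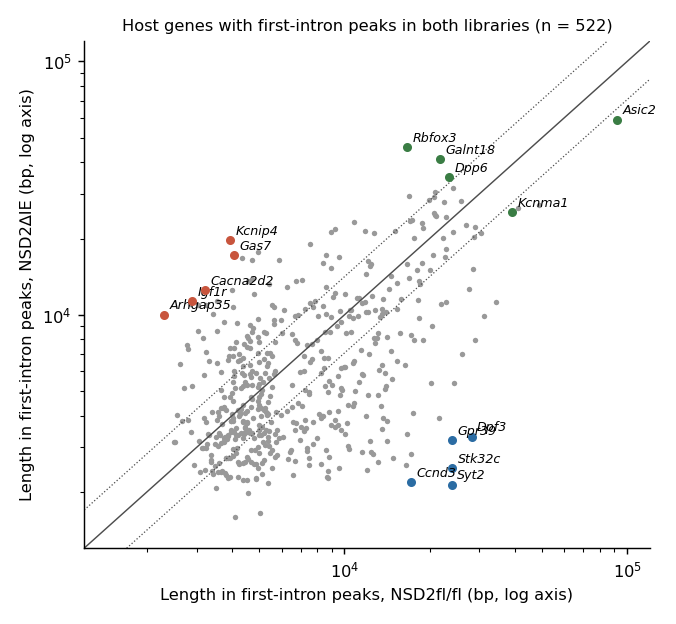
Length covered by first-intron peaks per gene in NSD2fl/fl (x axis, bp) and NSD2∆IE (y axis, bp), both on log axes, for the 522 genes with such peaks in both libraries. The solid line is equal length and dotted lines are log2 ratios of -0.5 and 0.5; named are the genes with most peaks (green), with the lowest ratio (blue, down to -3.49 in *Syt2*) and with the highest (red, up to 2.32 in *Kcnip4*).

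The study targets NSD2 and follows the ER stress sensor IRE1α, encoded by *Ern1*. Neither gene had a first-intron peak. *Ern1* had 1 peak in NSD2fl/fl, in intron 2 of 20 (chromosome 11, 106339623 to 106344396), and none in NSD2∆IE. Of all NSD2fl/fl peaks, 13168 of 19976 had no overlap in NSD2∆IE, so this absence alone cannot be read as a loss of the mark. The paper reports lower H3K36me2 in NSD2∆IE around the *Ern1* promoter from its CUT&Tag tracks. It also reports the mark at that promoter by ChIP in wild-type colon. The lists used here hold no promoter peak of *Ern1*. *Nsd2* had a peak over exon 19 of 23 in NSD2fl/fl (chromosome 5, 34043128 to 34048744), which the list credits to Mir7024, and a promoter peak in NSD2∆IE (33973260 to 33977025).

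Lists of genes by role were counted next, with a first-intron peak read against 7.63% and 8.33% of all genes with any peak. The NSD2fl/fl list starts at a summed signal of 21783 and the NSD2∆IE list at 16571. A peak named below as in NSD2∆IE only can thus have a signal lower than any in the NSD2fl/fl list, and the part of this limit was not tested. None of 30 intestinal epithelial transcription factors, such as the CDX, HNF4, GATA and KLF families, had a first-intron peak in either library, although 16 had another peak in NSD2fl/fl and 22 in NSD2∆IE. The genes of that list are short, with a median of 16.6 kb where a length is given. Of 46 nuclear receptors and coregulators, with a median of 68.8 kb, 31 and 32 had a peak and 8 in each library had one in the first intron, 6 of them the same genes. The list with the most such genes was that of axon guidance and long neuronal genes, with a median of 443.7 kb, where 13 of 36 genes in NSD2fl/fl and 13 of 40 in NSD2∆IE had one and 8 had it in both. Since shares rose with gene length, the lists differ in what they could hold, and the part of length in each count was not tested.

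**Figure D5:**
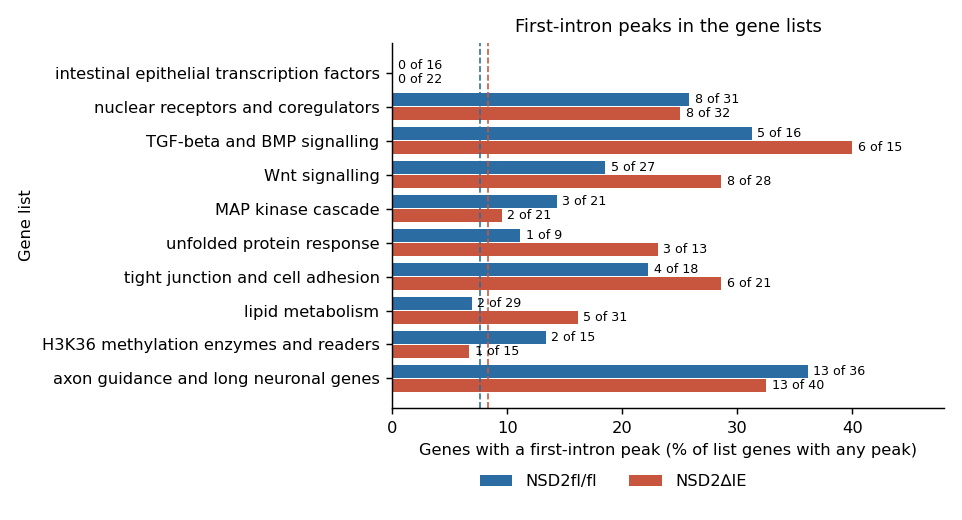
Genes with a first-intron peak as a percentage of the list genes with any peak (x axis), for 10 gene lists (y axis) in NSD2fl/fl and NSD2∆IE; numbers beside the bars are the counts. Dashed lines are the share over all genes with a peak, 7.63% in NSD2fl/fl and 8.33% in NSD2∆IE. Epithelial transcription factors have no bar (0 of 16 and 0 of 22), and the longest bars are axon guidance and long neuronal genes in NSD2fl/fl (13 of 36) and TGF-β and BMP signalling in NSD2∆IE (6 of 15).

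Among nuclear receptors, *Rxra* had 2 first-intron peaks per library. The pair at 27605256 to 27613509 in NSD2fl/fl and 27604640 to 27616718 in NSD2∆IE (chromosome 2) overlapped along the whole of the NSD2fl/fl peak. The second NSD2fl/fl peak, of 11830 bp, shared only 294 bp with NSD2∆IE peaks. The receptor genes *Rora* and *Esrrb* and the coactivator genes *Ncoa3* and *Ppargc1a* had peaks in both libraries as well. For *Rora*, encoding a receptor of circadian and lipid control, these were 2 and 6 peaks with no overlap, and for *Ppargc1a*, encoding PGC-1α, 3 and 1 with none. *Esrrb* had 4 in each library, and 1 pair overlapped by 1185 bp. *Vdr*, encoding the vitamin D receptor, had a peak of 6045 bp in NSD2fl/fl only.

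In TGF-β and BMP signalling, 5 of 16 genes with a peak in NSD2fl/fl and 6 of 15 in NSD2∆IE had one in the first intron. The first intron of *Ski* had 2 peaks in NSD2fl/fl, of 5253 and 3143 bp, and 4 in NSD2∆IE. The wider (chromosome 4, 155253575 to 155258827) lay wholly within an NSD2∆IE peak, and the other shared 2936 bp. *Smad3* and *Smurf1*, a ubiquitin ligase for SMAD proteins, each had 1 peak per library that did not overlap. The *Smad3* peaks were at 63646638 to 63654002 in NSD2fl/fl and 63609032 to 63611922 in NSD2∆IE on chromosome 9. The type II receptor gene *Acvr2a* and the ligand gene *Bmp7* had a peak in NSD2fl/fl only, and the receptor genes *Bmpr1b* and *Tgfbr3* and the effector gene *Smad1* in NSD2∆IE only.

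In Wnt signalling the counts were 5 of 27 and 8 of 28. Ligand genes with a first-intron peak were *Wnt4* in NSD2fl/fl, *Wnt5b* and *Wnt9b* in NSD2∆IE and *Wnt3* in both. The *Wnt4* peak shared 2250 bp with an NSD2∆IE peak of *Wnt4* that is annotated as promoter, 1 to 3 kb from a TSS. Of the receptors, *Ror1* and *Ror2* had peaks in both libraries, and *Lrp5* and *Lgr5* in NSD2∆IE only. *Ror2* had 2 and 5 peaks with no overlap, while the *Ror1* peak of 2172 bp in NSD2∆IE lay within one of 5084 bp in NSD2fl/fl. *Znrf3*, encoding a ligase that removes Wnt receptors, had a peak in NSD2fl/fl only, and the transcription factor gene *Tcf7* in NSD2∆IE only. The *Tcf7* peak shared 833 bp with peaks in NSD2fl/fl that are annotated to the 5′ UTR and promoter of *Tcf7*. Among MAP kinase genes the counts were 3 of 21 and 2 of 21, with *Map4k3* in both libraries, where the peaks shared 1692 bp. *Braf* and *Map3k1* had a peak in NSD2fl/fl only and *Map3k5* in NSD2∆IE only.

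Tight junction and cell adhesion genes had a first-intron peak in 4 of 18 cases in NSD2fl/fl and 6 of 21 in NSD2∆IE. *Nectin1*, encoding an adhesion protein of adherens junctions, had 4 in each library, between 43667883 and 43700753 on chromosome 9. Of its NSD2fl/fl peaks 3 overlapped, the widest, of 12648 bp, with 2 NSD2∆IE peaks of 2955 and 2714 bp. This intron thus held 1 long region in NSD2fl/fl where NSD2∆IE had shorter pieces. Peaks of any kind were narrower in NSD2∆IE, with a median of 3426 bp against 4643 bp. The reverse occurred too, as in *Nav1*, where an NSD2∆IE peak of 9412 bp overlapped NSD2fl/fl peaks of 3810 and 4783 bp. The scaffold gene *Magi1* had 3 peaks per library with no overlap.

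For the unfolded protein response the counts were 1 of 9 and 3 of 13. *Creb3l1*, encoding a transcription factor anchored in the ER membrane, had 1 and 2 peaks, of which 1 pair shared 1560 bp, and *Creb3l2* and *Ero1b*, an oxidase of the ER, had one in NSD2∆IE only. Lipid metabolism genes had 2 of 29 and 5 of 31. *Lpin1*, encoding a phosphatidate phosphatase, had a peak in both, without overlap. *Elovl5*, a fatty acid elongase gene, had one in NSD2fl/fl only. *Cd36*, encoding a fatty acid transporter, and *Dgat2*, encoding an enzyme that completes triglycerides, had a first-intron peak in NSD2∆IE only. So did *Agpat3* and the HDL receptor gene *Scarb1*. The *Scarb1* peak shared 2275 bp with an NSD2fl/fl peak of *Scarb1* that is annotated as promoter, 1 to 3 kb from a TSS. There the annotation differed, not the presence of a peak. The summed signals of *Cd36* and *Dgat2* were 21595 and 21588, and that of *Agpat3* was 25134. The NSD2fl/fl list starts at 21783, on a scale not known to be the same. Of the H3K36 methylation enzymes and readers, 2 of 15 and 1 of 15 had a first-intron peak. These were *Dnmt3a* (3141 bp) and the lysine methyltransferase gene *Smyd2* (4183 bp) in NSD2fl/fl, and the demethylase gene *Kdm4b* (3386 bp) in NSD2∆IE.

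Among axon guidance and long neuronal genes, the Eph receptor gene *Ephb1* had 2 peaks in NSD2fl/fl and 4 in NSD2∆IE, and 1 pair of them shared 4301 bp. In *Opcml*, encoding a neural adhesion protein, a peak of 8771 bp in NSD2fl/fl overlapped 2 NSD2∆IE peaks. *Ptprt*, a receptor phosphatase gene, had 3 and 5 peaks, of which 1 pair shared 1172 bp. *Csmd1*, *Dpp10*, *Lsamp*, *Nrxn3* and *Unc5d* had peaks in both libraries with no overlap.

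Markers of the cell types of the colon were counted in the same way, over the marker genes with any peak. Of 18 epithelial markers, 9 in NSD2fl/fl and 12 in NSD2∆IE had a peak, and 0 and 1 (*Lgr5*) had one in the first intron. For smooth muscle this was 1 of 5 (*Lmod1*) and 0 of 6, for fibroblasts 0 of 5 and 2 of 4 (*Pdgfrb* and *Twist2*), and for endothelium 1 of 5 and 2 of 7 (*Erg* in both and *Flt1*). For immune cells it was 0 of 6 and 2 of 6 (*Ptprc* and *Runx3*), and for enteric neurons and glia 0 of 8 and 2 of 8 (*Elavl4* and *Ret*). In NSD2∆IE the shares of the fibroblast, endothelial, immune and enteric neuron and glia lists were thus above the 8.33% of all genes with a peak, on 2 genes each. That of the epithelial list was equal to it, and that of smooth muscle, 0 of 6, was below it. In NSD2fl/fl the smooth muscle and endothelial lists were above 7.63%, on 1 gene each, and the other lists held 0. Median gene lengths, where given, were 15.1 kb for epithelial and 8.3 kb for smooth muscle markers. They were 39.9 kb for fibroblast, 77.3 kb for endothelial, 25.4 kb for immune and 37.0 kb for enteric neuron and glia markers. The 3 *Erg* peaks of NSD2∆IE and the 2 of NSD2fl/fl did not overlap. The *Ret* peak of NSD2∆IE shared 1890 bp with an NSD2fl/fl peak over an exon of *Ret*. The NSD2∆IE peaks of *Lgr5*, *Pdgfrb*, *Twist2*, *Flt1*, *Ptprc* and *Elavl4* had summed signals of 17250 to 21391. The NSD2fl/fl list starts at 21783, on a scale not known to be the same. The summed signal of the *Runx3* peak was 22860. The parts of cell types, gene length and list limits in the first-intron counts were not tested.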

How the data were processed

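CUT&Tag peaks of H3K36me2 were taken from 1 peak list per genotype, made by the authors for each library without pooling. The submitters' processing notes name Bowtie2, deepTools, SEACR and ChIPseeker, without versions, and the build hg38, which is a human build. The positions are of mouse. Of 18049 transcripts matched to GRCm38.p6, 7759 had the same length and only 135 the same length and start. The positions printed for peaks and genes are therefore those of the lists, with no build named. Versions, parameters and the control are not given in the sources used here. The deposited signal of a peak is a whole number that reads as coverage summed over the peak, with no stated scaling to depth. Width, gene length and distance to the TSS are other deposited values, in bp. The depth of the libraries is unknown, and intervals cover counting error only.

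Peaks annotated as intron 1 of a transcript were the members, and the host gene was the gene of that transcript. No filter was applied. Shares with Wilson intervals, overlaps of at least 1 bp, medians and, per host gene, the log2 ratio of summed width with a limit of 0.5 were computed with Python 3.11.15, pandas 2.3.3, numpy 2.4.6 and scipy 1.17.1, and drawn with matplotlib 3.10.9. The functions were tested on simulated lists. Genes were named by rule: the 5 peaks per library that were widest, had the highest signal per bp or were the strongest without overlap, the 5 genes with most peaks, largest fall or largest rise, the 5 longest overlaps, *Ern1*, *Nsd2* and the genes of the lists. Not every gene the rule covers is named here. The 12 genes with at least 5 peaks in both libraries and the 4 genes whose promoters are printed were chosen after their values were seen. The members, lists and rules were chosen with earlier results of these data known. The alternatives were the host gene also being the nearest gene, chromosomes 1 to 19, the strongest 50% of each list, shares of called length or of intron peaks, leaving out single-intron transcripts, a reciprocal overlap of 50%, counterparts in first introns only, centred log2 ratios, a limit of 1, genes with first-intron peaks in both libraries and all peaks of the host genes. Equal numbers of peaks by summed signal were added after seeing the data.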

Additional observations from a re-analysis of the deposited data

How the results depend on the processing

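Of 74 values under other settings, 44 stayed within the counting interval or, for gene counts, within 1.5 times, and 30 did not. NSD2fl/fl values come first and NSD2∆IE values second. With the host gene also the nearest gene, first-intron peaks made up 5.49% and 5.85% of the lists and lay at medians of 12201 and 11817 bp from the TSS. Without transcripts of a single intron the share was 6.998% and 7.59%, of intron peaks it was 35.4% and 33.8%, and of called length in NSD2fl/fl it was 6.98%. In the strongest 50% of each list the share was 6.43% and 7.31%, the overlap 24.0% and 22.0%, the median width 5422 and 4000.5 bp and the median signal 6.25 and 6.39 per bp, and 389 genes had less, 467 more and 86 similar length, with fewer peaks compared. The overlap was 13.6% and 11.2% with a reciprocal limit of 50%, and 24.8% and 20.7% with counterparts in first introns only. With equal numbers of peaks, chosen after seeing the data, the NSD2fl/fl overlap was 25.7% and the NSD2∆IE width 3481 bp. Genes with similar length numbered 385 with a limit of 1 and 519 over all peaks of the host genes, and of genes with first-intron peaks in both libraries 197 had less and 97 more. The excess of genes with more over genes with less length turned with equal numbers of peaks (731 less, 657 more), over all peaks of the host genes (667 and 539) and with peaks in both libraries. The overlap was lower in NSD2∆IE than in NSD2fl/fl under every setting but equal numbers of peaks, where it was 27.8% in NSD2∆IE. No paired analysis was possible because the series holds 1 list for NSD2fl/fl and 1 for NSD2∆IE. Depth is not known, and an absent peak may be one that fell under the limit of its list. The lowest summed signal listed was 21783 in NSD2fl/fl and 16571 in NSD2∆IE.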
